A study of Drosophila melanogaster with 31 samples.

Results

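Trimethylation of lysine 9 on histone H3 (H3K9me3) was mapped by chromatin immunoprecipitation and sequencing (ChIP-seq) in Drosophila melanogaster ovaries, and the peaks called on the arms of chromosome 3 are described here. All peaks on the sequences 3L and 3R of the dm3 genome build were taken, and the separate heterochromatin scaffolds 3LHet and 3RHet were left out. They number 684 of the 4643 peaks in mod07570/+ and 397 of the 3075 peaks in mod07570/L8.

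The study asks how Modulo (Mod), a chromatin-associated homolog of Nucleolin, acts with Piwi in transposon silencing, and for H3K9me3 it compared mod07570/L8 transheterozygous ovaries with ovaries of the heterozygous control mod07570/+. In mod07570 a P element sits in the gene and leaves part of its function. The null allele modL8 lacks sequence near the end of 3R, an arm described here. Both genotypes carry 1 mod07570 chromosome, and the second chromosome carries modL8 in the mutant and a wild type allele in the control. Homozygotes of either allele die, whereas females that combine them are viable and fertile. The stocks were kept over the TM3 balancer at the same temperature, and the ages of the females are not given in the sources used here. Ovaries hold both germ cells and somatic follicle cells, and the peaks do not tell them apart. The mod transcript was not measured in the chromatin libraries, so the genotypes could not be checked in them.

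H3K9me3 is the mark of constitutive heterochromatin. It is bound by HP1 proteins, covers the repeat-rich sequence on both sides of each centromere, and is placed over transposon copies by the nuclear Piwi pathway in the ovary. On the assembled arms, the right end of 3L and the left end of 3R run into the heterochromatin of the centromere, which here is called the centromere-side end. Only reads that map to a single place in the genome entered the peak call, so repeats themselves are largely unseen and a peak reports the unique sequence between and beside them.

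One ChIP library and 1 input library of each genotype were sequenced, so no difference between genotypes has a replicate error and no test was made. The ChIP libraries differ in depth. After removal of duplicates, mod07570/+ had 6187044 ChIP reads and mod07570/L8 had 1138939, a 5.43-fold difference. The input libraries had 16874502 and 7407221 reads. Duplicate removal left 29.8% of the ChIP reads in mod07570/+ and 37.1% in mod07570/L8. Intervals given below are 95% Wilson intervals over peaks. They cover counting error only, and neighbouring peaks are not independent. A peak that is called in 1 genotype only may have signal below the threshold in the other, and the unequal depth and the genotype cannot be told apart from the calls alone. The genotypes also differ in 1 copy of chromosome 3, which carries modL8 or the wild type allele. Other sequence differences between these copies cannot be told apart from the mod genotype either.

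H3K9me3 peaks were crowded at the centromere-side end of 3L. In mod07570/+, 3L held 392 peaks that covered 1176203 bp and 3R held 292 peaks that covered 215533 bp. The 2 Mb of 3L next to the centromere-side end held 206 of these peaks, 30.1% of the peaks of both arms, and 75.4% of the base pairs covered on both arms. The same window on 3R held 61 peaks. In mod07570/L8, 3L held 306 peaks over 381392 bp and 3R held 91 peaks over 66514 bp. Here the proximal 2 Mb of 3L held 244 peaks, which is 61.5% of the peaks and 76.6% of the covered base pairs of both arms. The number of peaks in mod07570/L8 relative to mod07570/+ was thus 0.781 on 3L and 0.312 on 3R, whereas the covered length was 0.324 and 0.309 of that in mod07570/+. Over all peaks, the arms therefore differed in the number of peaks relative to the control, but hardly in the relative length covered. Over the genome, the ratios were 0.662 for the number of peaks and 0.313 for the covered length. They were 0.631 and 0.289 on 2L, and 0.280 and 0.248 on X. The covered length of both arms was thus near the genome-wide ratio. Among peaks with a fold over input of at least 3, mod07570/L8 had more peaks than mod07570/+, with ratios of 1.74 on 3L and 1.37 on 3R. The covered length of those peaks was 0.380 of that in mod07570/+ on 3L and 1.52 times it on 3R. A fold of 3 is not an equal limit in the 2 lists. The median fold of all 3L peaks was 2.63 in mod07570/+ and 4.41 in mod07570/L8. Up to 16 mod07570/L8 peaks also overlapped a single mod07570/+ peak of 3L, so these counts do not show that strong peaks were gained.

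Signal in the peaks was also compared as a share of all ChIP reads, estimated from pileup, length and fragment size. Pileup is the number of extended ChIP reads that cover a base, averaged over the peak. Peaks on 3L held an estimated 4.40% of the ChIP reads in mod07570/+ and 4.67% in mod07570/L8. For 3R the shares were 1.06% and 0.58%. The proximal 2 Mb of 3L accounted for 3.78% and 4.17%, and the rest of 3L for 0.617% and 0.498%. The 3R peaks beyond the proximal window held 0.787% in mod07570/+ and 0.402% in mod07570/L8. These sums move with how much was called in each library.

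Along both arms, the numbers of peaks per 1 Mb showed where calls were shared. The first Mb of 3L had 136 peaks in mod07570/+, of which 79 shared at least 1 bp with a peak of mod07570/L8, and 157 peaks in mod07570/L8. The next Mb had 70 peaks, 38 of them overlapped, and 87 peaks in mod07570/L8. From 2 Mb on, the 23 bins of 3L had 1 to 21 peaks in mod07570/+ (median 8) and 0 to 14 in mod07570/L8 (median 1). On 3R, the first Mb had 33 peaks in mod07570/+, 8 of them overlapped, and 16 in mod07570/L8. The further 26 bins of 3R had 0 to 23 peaks in mod07570/+ (median 7.5) and 0 to 8 in mod07570/L8 (median 1). No mod07570/+ peak was overlapped in 11 of the 23 bins of 3L and in 13 of the 26 bins of 3R.

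**Figure D1:**
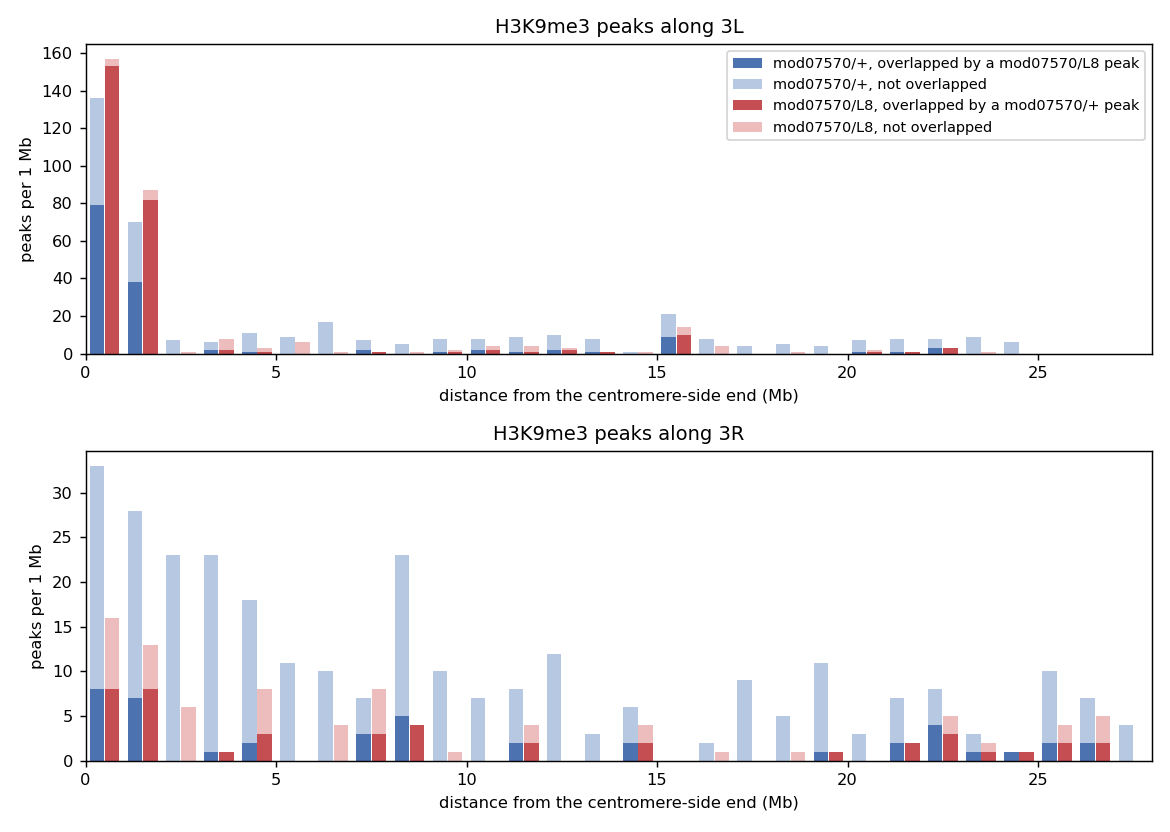
Number of H3K9me3 peaks in each 1 Mb bin (y axis, with a scale of its own in each panel) against the distance from the centromere-side end in Mb (x axis), for 3L (top) and 3R (bottom). Blue bars are mod07570/+ peaks and red bars mod07570/L8 peaks, 1 library each, and the dark part of a bar counts peaks overlapped by a peak of the other genotype. The first 2 bins of 3L tower over the rest with 136 and 70 mod07570/+ peaks, and on 3R most of the blue bars are pale.

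A mod07570/+ peak is called kept when a mod07570/L8 peak lies over at least 1 bp of it. On 3L, 143 of the 392 peaks were kept (36.5%, interval 31.9 to 41.4%), and on 3R 43 of 292 were kept (14.7%, interval 11.1 to 19.2%). Over all peaks of the genome list, 37.5% were kept, so 3L was close to the genome-wide share and 3R lay below it. The shares fell to 14.8% on 3L and 10.6% on 3R when at least 50% of a peak had to be covered. Their intervals then overlapped, at 11.6 to 18.7% and 7.58 to 14.7%. Among peaks with a fold of at least 3 in both lists, the shares were 71.4% and 31.4%. The arm 2L kept 26.2% of 317 peaks and X kept 17.1% of 738 peaks. In the heterochromatin scaffolds, 177 of 336 peaks were kept on 3LHet (52.7%) and 169 of 350 on 3RHet (48.3%).

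Position split 3L. In its proximal 2 Mb, 117 of 206 peaks were kept (56.8%, interval 50.0 to 63.4%), a share like those of 3LHet and 3RHet. In the rest of 3L, 26 of 186 peaks were kept (14.0%, interval 9.72 to 19.7%), which overlaps the interval of 3R as a whole. Within 3R, 15 of 61 peaks of the proximal window were kept (24.6%, interval 15.5 to 36.7%) and 28 of 231 beyond it (12.1%, interval 8.52 to 17.0%). The intervals of the proximal and distal parts of 3L did not overlap, and those of 3R did.

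Most mod07570/L8 peaks of 3L lay on control peaks. On 3L, 261 of 306 mod07570/L8 peaks were overlapped by a mod07570/+ peak (85.3%, interval 80.9 to 88.8%), and on 3R 43 of 91 were (47.3%, interval 37.3 to 57.4%). Over all mod07570/L8 peaks of the genome, 91.3% were overlapped. In the proximal 2 Mb of 3L, 235 of 244 were overlapped (96.3%). In the rest of 3L the number was 26 of 62 (41.9%), in the proximal window of 3R it was 16 of 29 (55.2%) and in the rest of 3R it was 27 of 62 (43.5%).

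To set the depth beside these shares, the pileup and the local background of each mod07570/+ peak were scaled to the mod07570/L8 depth. A peak was called within reach when the scaled values gave a Poisson p no larger than that of the weakest mod07570/L8 peak on 3L or 3R, a -log10 p of 2.65. This filter was added after the data were seen. It is stricter than the peak caller, because p recomputed in this way from the mean pileup had a lower -log10 than the deposited p in 98.4% of the mod07570/+ peaks. On 3L, 168 peaks were within reach and 113 of them were kept (67.3%, interval 59.8 to 73.9%). On 3R, 89 were within reach and 25 were kept (28.1%, interval 19.8 to 38.2%). Over the genome, 60.8% of the 2284 peaks within reach were kept.

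The contrast along 3L was wider among the peaks within reach. In the proximal 2 Mb of 3L, 99 of 109 such peaks were kept (90.8%, interval 83.9 to 94.9%), against 80.5% on 3LHet and 81.0% on 3RHet. In the rest of 3L, 14 of 59 were kept (23.7%, interval 14.7 to 36.0%). In the rest of 3R, 17 of 73 were kept (23.3%, interval 15.1 to 34.2%), and in its proximal window 8 of 16 (50%, interval 28 to 72%). On 2L 46.9% of 130 and on X 34.6% of 263 peaks within reach were kept. Peaks out of reach were kept in 18 of 97 cases in the proximal part of 3L (18.6%), in 12 of 127 in the rest of 3L (9.45%), in 7 of 45 in the proximal window of 3R (15.6%) and in 11 of 158 in the rest of 3R (6.96%). Over the genome, 350 of 2359 such peaks were kept (14.8%).

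**Figure D2:**
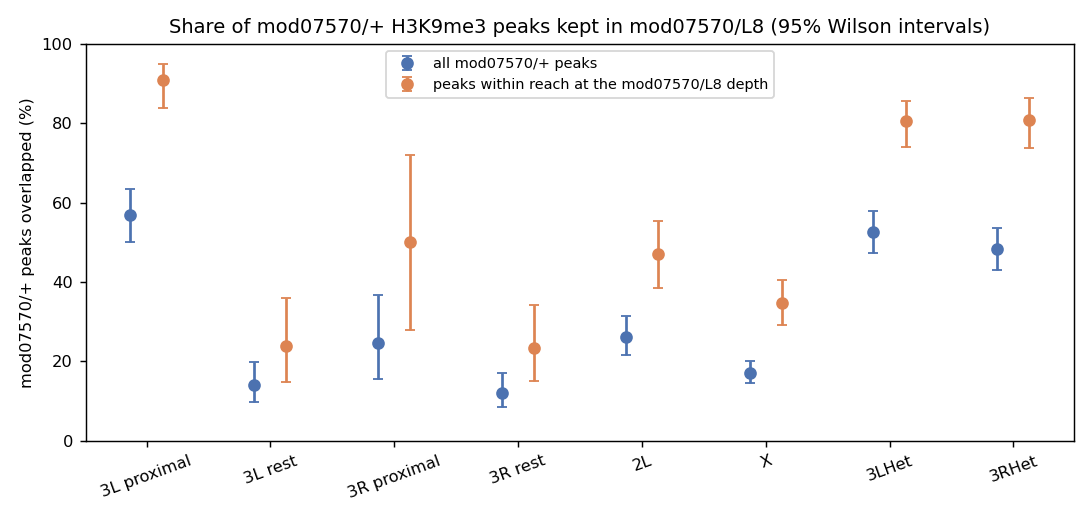
Percentage of mod07570/+ H3K9me3 peaks kept in mod07570/L8 (y axis) for the proximal 2 Mb and the rest of each arm of chromosome 3 and for 2L, X, 3LHet and 3RHet (x axis). Points are shares and bars 95% Wilson intervals over peaks, for all peaks (blue) and for peaks within reach at the mod07570/L8 depth (orange). The proximal part of 3L reached 90.8% of the peaks within reach, against 23.7% in the rest of the arm.

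The proximal peaks of 3L were longer than those of the other parts of the arms and resembled those of the heterochromatin scaffolds. In mod07570/+, their median length was 1730 bp, against 472.5 bp in the rest of 3L, 633 bp in the proximal window of 3R and 483 bp in the rest of 3R. It was 2230.5 bp on 3LHet and 1727.5 bp on 3RHet. On 3L, 37 peaks were longer than 10 kb, all of them in the proximal 2 Mb, and on 3R 1 peak was. Peaks under 1 kb made up 235 of 392 on 3L and 236 of 292 on 3R (80.8%). In mod07570/L8, the median length was 694 bp on 3L and 536 bp on 3R, and only 1 peak was longer than 10 kb.

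The fold over input is the pileup against the local background. The peak caller takes that background from the input, or from the genome average where the latter is higher. On the arms, the fold was likewise highest in that window. Its median in mod07570/+ was 3.11 in the proximal part of 3L, 2.23 in the rest of 3L, 2.15 in the proximal window of 3R and 2.09 in the rest of 3R. On 3LHet and 3RHet it was 3.20 and 2.85. In mod07570/L8 the medians were 4.94 in the proximal part of 3L, 2.75 in the rest of 3L, 3.02 in the proximal window of 3R and 3.07 in the rest of 3R. Over whole arms, the median fold was 2.63 on 3L and 2.10 on 3R in mod07570/+, and 4.41 and 3.06 in mod07570/L8. The fold of the mod07570/+ peaks ranged from 1.29 to 6.86 on 3L and from 1.32 to 5.18 on 3R.

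The local background, read back from pileup and fold, separated the same groups. In the proximal part of 3L its median in mod07570/+ was 1.00 times the genome average, which is the lowest value the peak caller uses. It was also 1.00 times on 3LHet and 3RHet. In the rest of 3L the median was 2.78 times the genome average and on 3R it was 3.18 times. A local background of at least 2 times the average was found at 14 of 206 peaks in the proximal part of 3L (6.80%), 112 of 186 in the rest of 3L (60.2%) and 199 of 292 on 3R (68.2%). X resembled 3R, with 68.0%, whereas the share was 40.7% on 2L and 28.6% over all mod07570/+ peaks of the genome. On 3L and 3R, most peaks outside the proximal part of 3L thus stood on input-rich ground with a low fold, although their pileup was not low. Normalised pileup is the pileup per 1000000 ChIP reads left after duplicate removal. Its median in mod07570/+ was 6.74 in the proximal part of 3L, 11.0 in the rest of 3L and 12.4 in the rest of 3R.

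Leaving out the peaks with a raised background kept the order of the arms. Among mod07570/+ peaks with a local background under 2 times the average, 45.5% of 266 were kept on 3L and 20.4% of 93 on 3R. This filter was added after the data were seen. It removed 14 of 206 peaks in the proximal part of 3L and 112 of 186 in the rest of 3L. The 3L share is therefore weighted towards the proximal part, and the filter does not compare the arms at like positions.

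**Figure D3:**
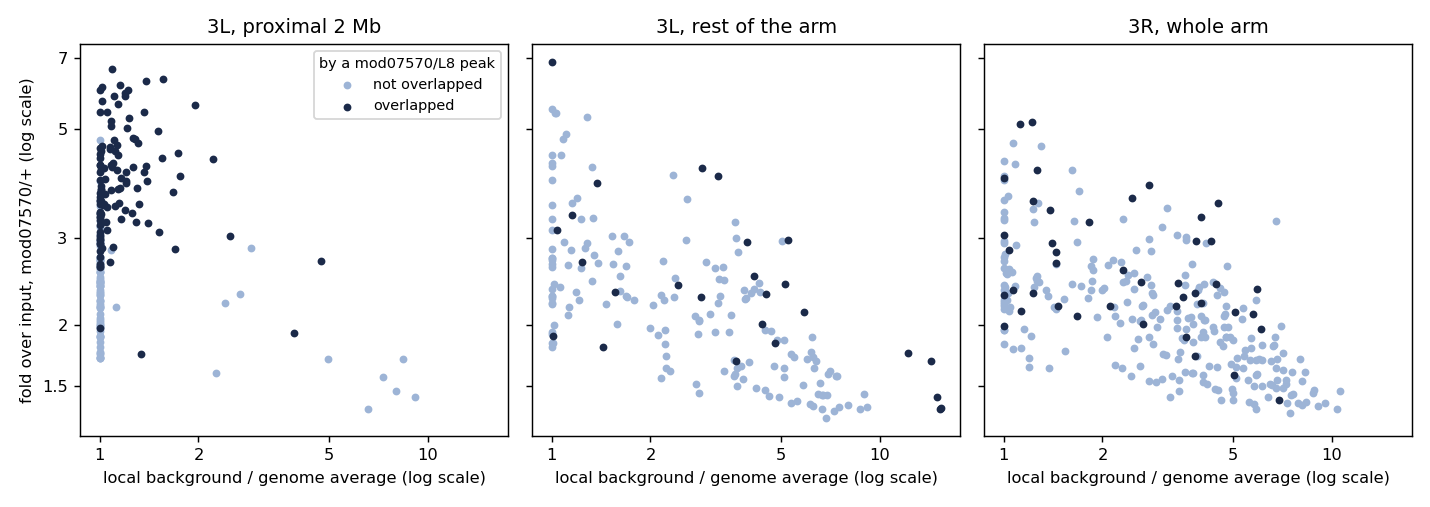
Fold over input (y axis, log scale) against local background relative to the genome average (x axis, log scale) for the mod07570/+ peaks of the proximal 2 Mb of 3L (206 peaks), the rest of 3L (186) and 3R (292). Dark points are peaks overlapped by a mod07570/L8 peak and pale points are not. In the proximal part of 3L the points stand near a background of 1 and turn dark with rising fold, while in the other panels they spread to higher background and most are pale, although both 3R peaks with a fold above 5 are dark.

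Fold in mod07570/+ went with being kept, but differently by region. The peaks of both arms were divided into tertiles by their fold in mod07570/+. The lowest tertile kept 17 of 228 peaks (7.46%), the middle tertile 35 (15.4%) and the highest 134 (58.8%). Inside the highest tertile, 109 of 129 peaks of the proximal part of 3L were kept (84.5%), against 8 of 47 in the rest of 3L (17.0%), 8 of 10 in the proximal window of 3R and 9 of 42 in the rest of 3R (21.4%). Length gave a like order, with 8.77%, 16.7% and 56.1% kept from the shortest to the longest tertile. Over both arms, pileup gave no such order, with 22.4%, 37.3% and 21.9%. By pileup, the proximal part of 3L kept 32.2%, 94.1% and 69.6%, and all peaks outside it kept 12.4%, 13.1% and 16.6%.

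A longer peak is more easily overlapped by 1 bp, so the criterion itself favours long peaks. On 3L, the kept peaks had a median length of 3702 bp and a median fold of 3.69, and those not kept 509 bp and 2.25. On 3R the kept peaks had 866 bp and 2.42, and those not kept 477 bp and 2.04. The 55 peaks of 3L that were within reach and not kept had a median length of 376 bp, a median fold of 3.17 and a median local background of 1.53 times the genome average. The 64 such peaks of 3R had 381 bp, 2.66 and 2.82 times.

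The peaks of highest fold are given next for each arm, and their folds cover different ranges on the arms. The 5 mod07570/+ peaks of highest fold on 3L were all kept. The first was chr3L:13567790-13568220, a peak of 431 bp that lies 11.0 Mb from the centromere-side end. Its fold was 6.86 in mod07570/+ and 6.79 in mod07570/L8. The other 4 lay within the proximal 2 Mb. They were chr3L:23990674-23991901, with a fold of 6.63 in mod07570/+ and 11.0 in mod07570/L8, chr3L:23908288-23908685 (6.32 and 9.42), chr3L:23983438-23984862 (6.28 and 7.59) and chr3L:24302652-24312116 (6.16 and 5.77). In 3 of the 5 the fold was higher in mod07570/L8.

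On 3R, 2 of the 5 peaks of highest fold were kept. They were chr3R:26906061-26906421, with a fold of 5.18 in mod07570/+ and 5.01 in mod07570/L8, and chr3R:1166342-1167192 (5.13 and 7.75). The other 3 had no mod07570/L8 peak over them. They were chr3R:26901785-26902165 (fold 4.69 in mod07570/+), chr3R:19491014-19491333 (4.61) and chr3R:13864607-13864898 (4.30). Next among those not kept were chr3R:2067916-2068313 (4.25) and chr3R:10053662-10053953 (4.13). These 5 peaks not kept were within reach at the mod07570/L8 depth, with a scaled -log10 p of 4.14 to 5.93 against the limit of 2.65.

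All 5 peaks of highest fold that were not kept on 3L lay outside the proximal 2 Mb. They were chr3L:13573056-13573374 (fold 5.49), chr3L:17516194-17516557 (5.40), chr3L:13285098-13285513 (5.40), chr3L:9123539-9124242 (5.30) and chr3L:19212220-19212590 (4.89). Their normalised pileup was 10.7 to 13.3, and their local background was 1.00 to 1.28 times the genome average. All 5 were within reach at the mod07570/L8 depth, with a scaled -log10 p of 5.94 to 7.52 against the limit of 2.65. The first of them lies next to the strongest peak of the arm, chr3L:13567790-13568220, which was kept.

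Long control peaks of 3L appeared in mod07570/L8 as rows of shorter peaks. Of the 143 kept peaks of 3L, 46 were overlapped by at least 2 mod07570/L8 peaks, 45 of them in the proximal 2 Mb. On 3R, 2 of 43 were. The number was 497 of 1739 kept peaks over the genome, 31 of 83 on 2L, 80 of 177 on 3LHet and 59 of 169 on 3RHet. Such rows were therefore not particular to 3L. The longest mod07570/+ peak, chr3L:23418532-23491482, spans 72951 bp at a fold of 4.69 and a normalised pileup of 11.9. It was overlapped by 16 mod07570/L8 peaks, which covered 32583 bp (44.7%) with a median length of 971 bp. Their lengths were 255 to 6561 bp and their folds 2.69 to 12.1. The highest of them, chr3L:23422364-23425320, had a normalised pileup of 94.0, and the lowest, chr3L:23459426-23459762, had 6.68. The called mod07570/L8 peaks ended well before the right end of the control peak, in whose last part no mod07570/L8 peak was called.

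**Figure D4:**
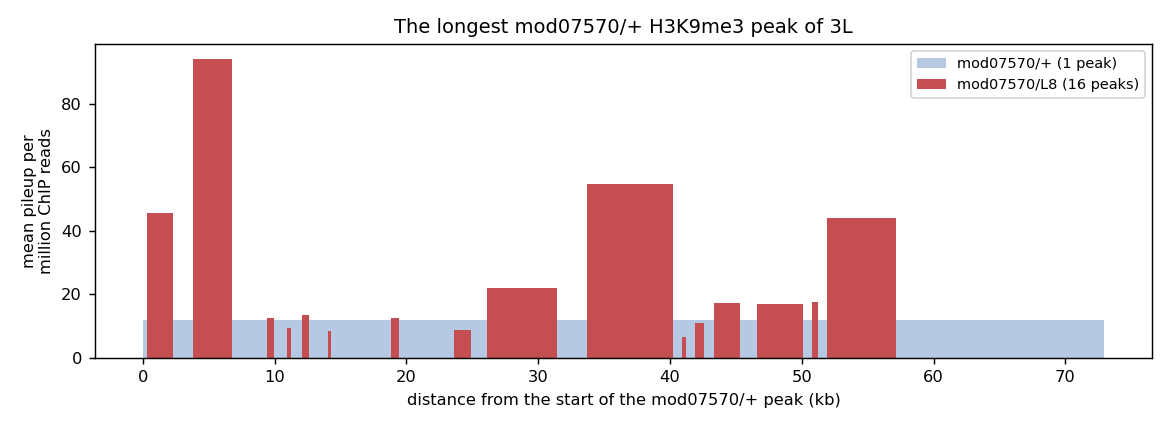
Normalised pileup, the mean pileup per 1000000 deduplicated ChIP reads (y axis), against the distance in kb from the start of the longest mod07570/+ H3K9me3 peak of 3L (x axis). The pale blue block is the mod07570/+ peak of 72951 bp, drawn at its mean of 11.9, and each red bar is 1 of the 16 mod07570/L8 peaks inside it, drawn at its own mean and length. The red bars range from 6.68 to 94.0 and leave gaps in which no mod07570/L8 peak was called.

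The other 4 long peaks of 3L were alike. chr3L:24028582-24061052 was overlapped by 10 mod07570/L8 peaks that covered 40.7% of it, chr3L:23385888-23415897 by 6 peaks that covered 40.9%, and chr3L:24095289-24123776 by 7 peaks that covered 65.5%. chr3L:23288310-23317148 spans 28839 bp and was covered to 60.9% by 4 peaks, among them chr3L:23292252-23306250, the longest mod07570/L8 peak of the arms at 13999 bp. The fold there was 5.60 in the mod07570/+ peak and 13.0 in that mod07570/L8 peak. On 3R the longest mod07570/+ peak, chr3R:4682644-4694295, spans 11652 bp at a fold of 2.93. It was overlapped by 2 mod07570/L8 peaks that covered 971 bp (8.33%). The second, chr3R:177930-183646, spans 5717 bp and was covered to 9.62% by 1 peak. Over the whole proximal part of 3L, mod07570/L8 peaks covered 31.7% of the base pairs of the mod07570/+ peaks. The share was 29.6% over the genome, 32.2% on 3LHet, 27.3% on 3RHet, 25.9% on 2L and 17.6% on X. It was 12.7% in the rest of 3L, 21.1% in the proximal window of 3R and 10.9% in the rest of 3R. The proximal part of 3L was thus near the genome-wide share, and the other parts lay below it.

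Joining mod07570/+ peaks at gaps of up to 5 kb gave domains. There were 172 on 3L, of which 105 were single peaks and 15 spanned more than 20 kb. On 3R there were 203, of which 149 were single peaks and 1 spanned more than 20 kb. At least 1 mod07570/L8 peak lay in 47 of the 172 domains of 3L (27.3%, interval 21.2 to 34.4%) and in 29 of the 203 of 3R (14.3%, interval 10.1 to 19.8%). With gaps of up to 10 kb the shares were 17.8% (interval 12.2 to 25.1%) and 14.9% (interval 10.5 to 20.8%), so the intervals of the arms overlapped. The longest domain of 3L, chr3L:23540580-23794026, spans 253447 bp. It holds 34 mod07570/+ peaks, 17 of them kept, and 37 mod07570/L8 peaks. In chr3L:23385888-23533122, of 147235 bp, all 8 mod07570/+ peaks were kept and 33 mod07570/L8 peaks were called. In chr3L:23191199-23317148, of 125950 bp, 10 of 14 peaks were kept and 21 mod07570/L8 peaks were called.

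The 3 longest domains of 3R were shorter by an order of magnitude. chr3R:4671762-4694295 spans 22534 bp with 5 mod07570/+ peaks, of which 1 was kept. chr3R:8331536-8344124 spans 12589 bp with 5 peaks, none of them kept. chr3R:171129-183646, near the centromere-side end, spans 12518 bp, and all 3 of its peaks were kept.

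Where both genotypes had a peak, the fold was mostly higher in mod07570/L8. Each kept mod07570/+ peak was paired with the mod07570/L8 peak of largest overlap, which gave 186 pairs. On 3L, the median fold was 3.69 in mod07570/+ and 4.81 in mod07570/L8 over 143 pairs, with a median ratio of 1.31, and 119 pairs were higher in mod07570/L8. On 3R, the medians were 2.42 and 3.39 over 43 pairs, the median ratio was 1.31, and 38 pairs were higher in mod07570/L8. The order of the pairs was partly shared, with Spearman's rho of 0.69 on 3L and 0.61 on 3R, given as a description over pairs that share 2 libraries.

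Normalised pileup gave a larger ratio. Its median ratio of mod07570/L8 to mod07570/+ was 2.06 on 3L, with 130 of 143 pairs higher, and 1.90 on 3R, with 36 of 43 higher. These ratios compare means over peaks of unequal length. The mod07570/L8 peak was shorter in 122 of the 143 pairs of 3L, with a median length of 1026 bp against 3702 bp, and on 3R the medians were 884 and 866 bp. With at least 50% of both peaks shared, an alternative that leaves 43 pairs on 3L and 22 on 3R, the median ratio of fold was 1.15 on 3L and 1.49 on 3R, and that of normalised pileup, chosen after the data were seen, 1.79 and 1.91. A pair exists only where the shallower library passed the threshold, and the share of reads left after duplicate removal differed between the libraries. The part of both in these ratios was not tested.

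**Figure D5:**
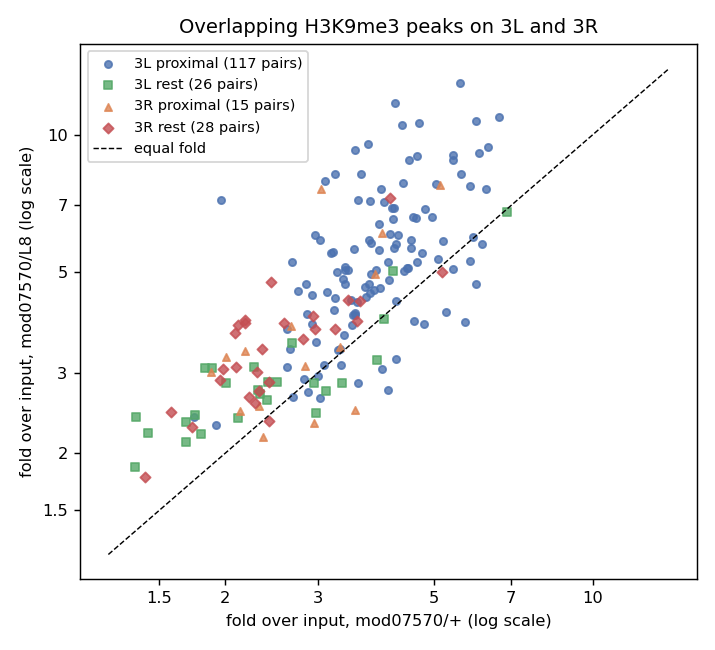
Fold over input in mod07570/L8 (y axis, log scale) against fold over input in mod07570/+ (x axis, log scale) for the 186 pairs of overlapping H3K9me3 peaks, by part of the arm. The dashed line marks equal fold. Of the pairs, 157 lie above it, and the pairs of the proximal part of 3L (117) lie towards the upper right.

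The ratio of fold varied among the pairs. The lowest on 3L was 0.673, for chr3L:24410986-24412495, with a fold of 4.09 in mod07570/+ and 2.75 in mod07570/L8. The highest was 3.66, for chr3L:23191199-23192111 (1.97 and 7.20), whose overlap was 80 bp. On 3R the lowest was 0.706, for chr3R:1587111-1588418 (3.53 and 2.50), and the highest 2.49, for chr3R:1168757-1169047 (3.05 and 7.59).

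Peaks called in mod07570/L8 only mostly had a low fold. There were 45 on 3L and 48 on 3R, with a median fold of 2.79 and 2.65, against 4.81 and 3.36 for the overlapped mod07570/L8 peaks of the same arms. A mod07570/+ peak lay within 5 kb of 17 of those on 3L and of 8 on 3R, and 21 and 16 lay more than 50 kb from the nearest. On 3L those of highest fold were chr3L:23286932-23287624 (fold 5.02), which lies just before the long peak chr3L:23288310-23317148, chr3L:23800166-23800478 (4.80) and chr3L:8349898-8350954 (4.75).

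On 3R, the mod07570/L8 peak of highest fold with no mod07570/+ peak over it was chr3R:2973467-2977338. It is 3872 bp long, the longest mod07570/L8 peak of the arm, with a fold of 6.70, a normalised pileup of 38.6 and a -log10 q of 26.6. It stood in a run of 5 mod07570/L8 peaks, chr3R:2965232-2978887, with folds of 2.12 to 6.70 and no mod07570/+ peak in its 13656 bp. The nearest mod07570/+ peaks lay 24.8 kb before and 50.8 kb after the run. The deeper library thus had no call where the shallower had 5. The run was singled out after its values were seen, and what lies there was not looked up because no dm3 annotation was used here. The next peaks of 3R called in mod07570/L8 only were chr3R:26202224-26202486 (fold 5.55) and chr3R:242280-243220 (4.42).

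Another stretch stood out by its input, and it too was singled out after its values were seen. In chr3L:8719605-8733337, 13733 bp long, there were 7 mod07570/L8 and 5 mod07570/+ peaks, and all 5 of the latter were kept. The local background was 26.7 to 34.0 times the genome average in mod07570/L8 and 12.2 to 15.4 times in mod07570/+. At the other peaks of the arms it was at most 9.32 times in mod07570/L8 and 10.6 times in mod07570/+. The folds were low, 1.66 to 2.54 in mod07570/L8 and 1.35 to 1.75 in mod07570/+. The normalised pileup was 94.5 to 153 in mod07570/L8 and 38.2 to 44.7 in mod07570/+, and the highest value of the arms in each genotype lay in this stretch. Input DNA was thus raised there in both genotypes. With 1 read kept per position, the background can rise less far above the average in the deeper mod07570/+ input. The values therefore do not show in which genotype input DNA was raised more. These 5 kept peaks make up 5 of the 26 kept peaks of 3L beyond the proximal 2 Mb.

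Both arm ends away from the centromere had peaks in mod07570/+ only. On 3R, where modL8 carries its subterminal deletion, the last mod07570/L8 peak was chr3R:26988686-26989205. Beyond it mod07570/+ had 4 peaks, with folds of 1.48 to 2.70, the last of which was chr3R:27877294-27877661. On 3L, 15 mod07570/+ peaks with folds of 1.5 to 2.83 preceded the first mod07570/L8 peak, chr3L:1535665-1536381. The end of 3R was thus not the sole end without mod07570/L8 calls. Most of these peaks were out of reach at the mod07570/L8 depth, for which the limit was a -log10 p of 2.65. Their scaled -log10 p was 1.04 to 2.89 on 3R and 1.02 to 5.10 on 3L. The position of the deletion was not given in the sources used here, and its part in the 4 peaks was not tested.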

How the data were processed

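H3K9me3 ChIP-seq of mod07570/+ and mod07570/L8 ovaries was analysed, with 1 ChIP and 1 input library per genotype. The paper describes 3 ChIP replicates of which 1 was sequenced. All 3 were used for qPCR, in which the paper reports lower H3K9me3 at the transposons gypsy, diver and gtwin in mod07570/L8. From the sequenced replicate it reports lower enrichment at most transposon sequences in mod07570/L8. Both measure transposon sequence, unlike the peaks of uniquely mapped reads described here. For uniquely mapped reads, the paper reports a decline of reads and peaks in mod07570/L8 at a location on 2L with gtwin insertions. It also reports disrupted H3K9me3 at the majority of transposon insertions, and low levels at genes that were similar in both genotypes. Per the labels, 1 ChIP sample names the mod07570 allele without the second chromosome, which the design text gives as +. The authors mapped reads to dm3 and kept uniquely mapped reads, with Bowtie according to the methods and Bowtie 2 among the tools of the submitters' processing notes. They called broad peaks with MACS2 2.2.7.1 against input, with 1 read per position, a genome size of 139741753 bp and q cutoffs of 0.05 and 0.1. The deposited pileup is a signal, the mean number of extended ChIP reads over a peak, not scaled to depth. The deposited fold is the ratio of pileup to local background after MACS2 adds 1 to both. The deposited -log10 p and -log10 q come from the same run of the authors, and their column names had been lost.

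Local background was solved from the deposited pileup and fold. Its lowest value, 11.5 reads in mod07570/+ and 2.08 in mod07570/L8, equals the genome average. Normalised pileup is per 1000000 ChIP reads after duplicate removal. Distance was counted from coordinate 1 on 3R and from the largest peak end on 3L. Overlaps were computed in pandas 2.3.3 and numpy 2.4.6 (Python 3.11.15), tested on simulated intervals, and bedtools 2.31.1 gave the same 186 and 304 peaks. Poisson p came from scipy 1.17.1 and plots from matplotlib 3.10.9. Named peaks are, per arm, the 5 of highest fold, the 5 longest and the 5 of highest fold not kept in mod07570/+, the 3 of highest fold in mod07570/L8 only, the 3 longest domains and the extreme pairs, and others are said to be singled out. The members and the rules were chosen with earlier results of these data known. Alternatives were the overlap required, limits on q, fold, length and background, lists of equal size, scaling to equal depth, windows and gaps. The 21 RNA tables were not used, and no genome sequence or gene annotation of dm3 was used, so peaks are given by position alone.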

Additional observations from a re-analysis of the deposited data

How the results depend on the processing

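No paired analysis was possible because each genotype has 1 ChIP library, and for the same reason no library could be left out in turn. Of 62 alternatives, 37 stayed within the counting interval or limit of the main value, 25 moved and 0 reversed. On 3L the kept share (36.5%) was 14.8% when at least 50% of the peak had to be covered, 71.4% with a fold of at least 3 in both lists, 43.8% with lists of equal size and 45.5% with a local background under 2 times the average. It was 45.1% and 26.3% for peaks whose scaled pileup reached the lowest or the median mod07570/L8 pileup, 67.3% for peaks within reach and 69.5% with reach scaled by total ChIP reads. On 3R (14.7%) the same settings gave 10.6% for 50% coverage, 31.4% for fold, 24.2% for equal size, 20.4% for background, 28.1% within reach and 31.3% by total reads. The share of mod07570/L8 peaks matched became 92.7% on 3L and 73.3% on 3R at a -log10 q of at least 5, 89.8% on 3L at 500 bp or more, and 22.9% on 3R at a fold of at least 3. At that fold, which is not an equal limit in the 2 lists, mod07570/L8 had more peaks than mod07570/+. The ratio was 1.74 on 3L and 1.37 on 3R, while the covered length was 0.380 times on 3L and 1.52 times on 3R. At a -log10 q of at least 5 the ratio of peaks on 3R was 0.160. Beyond a window of 1 Mb, 25% of the 3L peaks were kept, as the second Mb then counts with the rest. Domains of 3L with a mod07570/L8 peak were 35.0% at a gap of 1 kb and 17.8% at 10 kb, against 14.0% and 14.9% on 3R. In each setting run for both arms, the kept share was higher on 3L than on 3R. The intervals of the arms overlapped in some settings. With 50% coverage they were 11.6 to 18.7% on 3L and 7.58 to 14.7% on 3R. For scaled pileup of at least the median they were 17.7 to 37.2% and 8.77 to 22.0%. Except for the window of 1 Mb, the causes of the shifts from the main values were not tested. The unequal depth limits every count of peaks.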
